A study of Homo sapiens with 8 samples.

Results

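The 10 genes described here encode ETS transcription factors that lie downstream of the kinase ERK. They were fixed by name, with earlier results of these data known. Their symbols were matched to the 58688 genes of the count files, of which 34437 had a count in any sample. All 10 were found. They fall into the PEA3 group (ETV1, ETV4 and ETV5), the ETS group (ETS1 and ETS2), the ternary complex factors or TCFs (ELK1, ELK3 and ELK4) and the epithelium-specific group (ELF3 and EHF).

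RNA was sequenced from LM2, a lung-metastatic derivative of the triple-negative breast cancer cell line MDA-MB-231. In 1 experiment the cells received DMSO (2 samples) or 1 µM Ponatinib, an inhibitor of ABL and other tyrosine kinases, for 6 h (2 samples). In the other, lentiviral short hairpin RNAs (shRNAs) were used to make stable lines with scrambled shRNA (shCtrl), ABL1 shRNA, ABL2 shRNA or ABL1/ABL2 shRNA, with 1 sample each. The shRNA cells were puromycin-selected populations, Ponatinib is not selective for ABL, and nothing in the labels says whether the repeats were separate cultures, so p-values measure only the spread between these samples.

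Total counts on genes ranged from 7568934 to 13010896 per sample, and a gene with 3 counts in a sample stood at 0.231 to 0.396 CPM (its reads scaled to the sample's total). Of the receptors that define triple-negative cells, PGR had no count in any sample and ESR1 at most 11, while ERBB2 mRNA was present at 52.7 to 68.0 CPM. The mesenchymal marker VIM stood at 1896 to 3179 CPM. CDH1 reached at most 1.77 CPM while KRT8 stood at 240 to 804 CPM, and the 4 blood cell markers had at most 3 counts. Levels below are CPM after TMM scaling within each experiment, called normalized CPM. ABL1 stood at 189.8 normalized CPM in shCtrl, and at 72.7, 202.5 and 109.3 in the ABL1, ABL2 and double knockdowns. ABL2 stood at 236.1, 212.4, 93.5 and 147.6 in the same order, so both targets kept more mRNA in the double knockdown than in the single ones. In the count tables the names at the head of the shCtrl and ABL1 shRNA values are exchanged, and the ABL1 levels go with the sample labels used here.

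ETS proteins bind DNA at a GGA core through a winged helix-turn-helix domain whose recognition helix is much alike across the family. Growth factor receptors signal through RAS, RAF and MEK to ERK, which phosphorylates ETS1, ETS2 and the TCFs and so raises their activity on target genes. ERK signaling also raises the amount of the PEA3 mRNAs, in part by removing the repressor CIC from their genes, so that ETV4 and ETV5 are widely used as readouts of ERK output. ELF3 and EHF belong to an epithelial branch of the family.

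To show how close the members are, the 39 bases that encode 13 codons of the recognition helix are printed for the 6 that moved most after Ponatinib. They were read from GENCODE v44 transcripts on GRCh38, with bases that differ from ETV4 in capitals.
ETV4: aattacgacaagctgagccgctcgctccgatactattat
ETV5: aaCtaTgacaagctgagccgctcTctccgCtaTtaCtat
ETV1: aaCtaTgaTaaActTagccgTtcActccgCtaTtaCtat
ETS1: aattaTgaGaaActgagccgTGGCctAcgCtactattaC
ELK3: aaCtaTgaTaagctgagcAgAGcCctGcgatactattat
ELF3: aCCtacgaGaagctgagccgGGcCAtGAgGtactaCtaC

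These exonic stretches lie at chr17:43529156-43529194 in ETV4, chr3:186052051-186052089 in ETV5, chr7:13900759-13900797 in ETV1 and chr11:128462496-128462534 in ETS1, all on the minus strand. On the plus strand, that of ELK3 lies at chr12:96223729-96223767, and that of ELF3 spans 2 exons between positions 202013996 and 202015218 of chromosome 1. ETV5 differs from ETV4 at 6 of the 39 bases, ELK3 at 8, ETV1 and ETS1 at 10 and ELF3 at 12. The canonical transcripts (1 per gene) were compared over their whole length in the sense direction. The longest stretch shared exactly by any pair of the 10 was 33 bases, between ETV4 and ETV5. Within these transcripts, a longer read without mismatches could belong to only 1 of the 10. Stretches of 50 bases from these transcripts were also looked up in the transcripts of other genes, in the sense direction. ELF3 shared 402 of its 3055 stretches with ENSG00000249007, and ETV5 116 of its 4033 with DGKG. ELK4 shared 78 of 10239 and ELK1 23 of 2827 with other genes. ETV1, ETV4, ETS1, ETS2, ELK3 and EHF shared none. The opposite strand and the other transcripts of the members were not compared. Read length and strand setting are not given in the sources used here.

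Ponatinib lowered 6 of the 10 mRNAs and raised 2 (edgeR quasi-likelihood test, Benjamini-Hochberg adjusted p under 0.05 over 16031 genes). ETV1, ETV4, ETV5, ETS1, ELK1 and ELK3 fell, ETS2 and ELF3 rose, and ELK4 and EHF did not pass. Among all genes tested, 15.7% were lower and 15.0% higher by the same rule. The study's rule for a differentially expressed gene (DEG) was a fold change over 2 with an unadjusted P under 0.05. Applied here, it called 4 members lower (ETV4, ETV5, ETS1 and ELK3) and 1 higher (ELF3). Over all genes it called 367 lower (2.29%) and 511 higher (3.19%). These are more DEGs than the paper reported, so the members called here need not be among the paper's. The median log2 fold change was -0.50 over the 10 members and -0.0047 over all genes. RNA was taken from whole cultures, so fewer cells with a transcript and less of it per cell cannot be told apart.

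**Figure D1:**
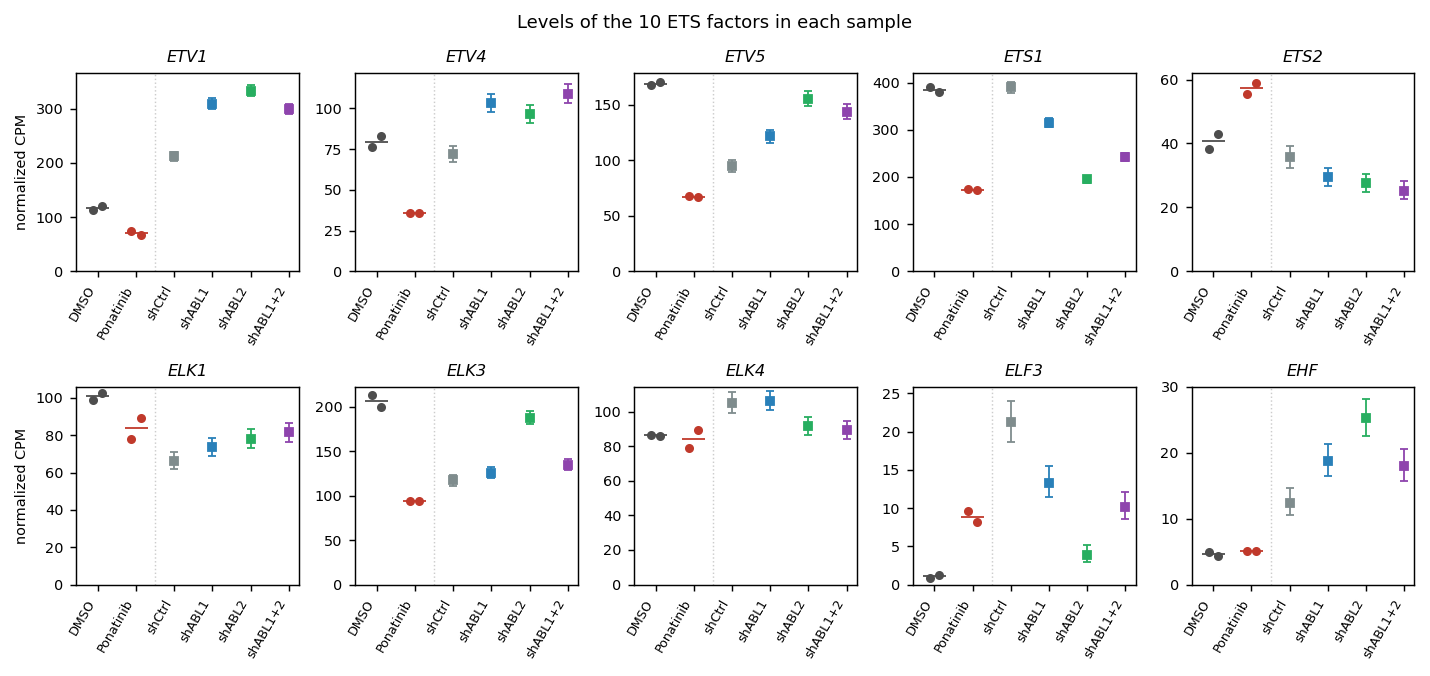
Normalized CPM of the 10 ETS factors (y axis, from 0) in each sample (x axis). Circles are single DMSO and Ponatinib samples with a line at their mean, squares are the single shRNA samples with 95% Wilson intervals for counting error, and the dotted line parts experiments that were scaled separately; ETV1, ETV4, ETV5, ETS1 and ELK3 lie lower in both Ponatinib samples than in either DMSO sample, and ELF3 lies higher.

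All members of the PEA3 group fell. ETV5 (chr3:186046314-186110318, minus strand), an activator of migration and branching programs, stood at 167.9 and 170.0 normalized CPM in the DMSO samples and at 67.5 and 67.0 in the Ponatinib samples. The groups lay far apart and the pairs close together, and ETV5 was 2.51-fold lower (log2 fold change -1.33, SE 0.07, edgeR adjusted p = 1.4e-09). ETV4 (chr17:43527844-43579620, minus strand), which can drive matrix protease genes and metastasis in breast cancer models, measured 76.1 and 82.7 with DMSO and 35.6 and 35.8 with Ponatinib. It was 2.22-fold lower, again without overlap (log2 fold change -1.15, SE 0.08, edgeR adjusted p = 5.4e-08). ETV1 (chr7:13891229-13991425, minus strand), the third of the group, had 113.0 and 119.6 normalized CPM with DMSO and 73.4 and 66.5 with Ponatinib. It was also lower in both samples but by 1.66-fold, so it passed the test and was not a DEG (log2 fold change -0.73, SE 0.07, edgeR adjusted p = 2.3e-06).

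The ETS group split. ETS1 (chr11:128458761-128587558, minus strand), a regulator of invasion and angiogenesis genes, stood at 389.8 and 379.8 normalized CPM with DMSO and at 173.7 and 171.9 with Ponatinib. It was 2.23-fold lower (log2 fold change -1.15, SE 0.06, edgeR adjusted p = 2.3e-09). ETS2 (chr21:38805183-38824955, plus strand), its closest relative, went the other way. It measured 38.4 and 42.9 with DMSO and 55.5 and 59.1 with Ponatinib, 1.41-fold higher with no overlap (log2 fold change 0.49, SE 0.09, edgeR adjusted p = 0.00045).

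The TCFs, which bind DNA together with serum response factor (SRF), differed among themselves. ELK3 (chr12:96194375-96269824, plus strand), a TCF that represses its targets until ERK phosphorylates it, measured 213.0 and 199.2 normalized CPM with DMSO and 93.9 and 94.2 with Ponatinib. It was 2.19-fold lower (log2 fold change -1.13, SE 0.07, edgeR adjusted p = 7.0e-09). ELK1 (chrX:47635521-47650604, minus strand), the best known TCF, measured 98.8 and 102.8 with DMSO and 78.0 and 89.4 with Ponatinib. Its fall was the smallest that passed, 1.21-fold, and its size and call depended on single samples (log2 fold change -0.27, SE 0.08, edgeR adjusted p = 0.012). With Ponatinib replicate 1 left out, ELK1 had a log2 fold change of -0.16 and an edgeR adjusted p of 0.085. With Ponatinib replicate 2 left out, these were -0.37 and 2.3e-06 in the same edgeR test. The edgeR adjusted p was 0.062 without DMSO replicate 1 and 0.14 without DMSO replicate 2, and it was 0.070 in DESeq2's Wald test. ELK4 (chr1:205597556-205632011, minus strand), the third TCF, had 86.8 and 86.0 normalized CPM with DMSO and 79.3 and 89.6 with Ponatinib. These ranges overlapped, and the 95% interval of the log2 fold change ran from -0.20 to 0.12 (edgeR adjusted p = 0.73).

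Both epithelium-specific members were scarce. ELF3 (chr1:202007945-202017183, plus strand), an activator of epithelial differentiation and inflammation genes, had 10 and 13 counts in the DMSO samples and 101 and 63 in the Ponatinib samples. As normalized CPM these were 0.883, 1.31, 9.58 and 8.18, so both treated samples stood well above both controls. ELF3 was 8.17-fold higher (log2 fold change 3.03, SE 0.27, edgeR adjusted p = 6.4e-07), the 16th largest rise among the 16031 genes. In the annotation, ELF3 shares exon bases with 2 other genes. It shares 664 bases with the antisense gene ELF3-AS1 and as many with ENSG00000249007, a long noncoding RNA on the same strand. Whether these are the same bases was not determined. ELF3-AS1 had 0 and 3 counts with DMSO and 11 and 9 with Ponatinib, ENSG00000249007 had 0 and 0, then 2 and 1, and the part of such reads in the ELF3 rise was not tested. EHF (chr11:34621093-34663288, plus strand), its relative in epithelia, had 55 and 43 counts with DMSO and 54 and 39 with Ponatinib. EHF stood at 4.86 and 4.34 normalized CPM with DMSO and 5.12 and 5.06 with Ponatinib, and the interval of its log2 fold change, -0.31 to 0.59, holds both no change and a rise of the size seen for ETS2 (edgeR adjusted p = 0.65).

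**Figure D2:**
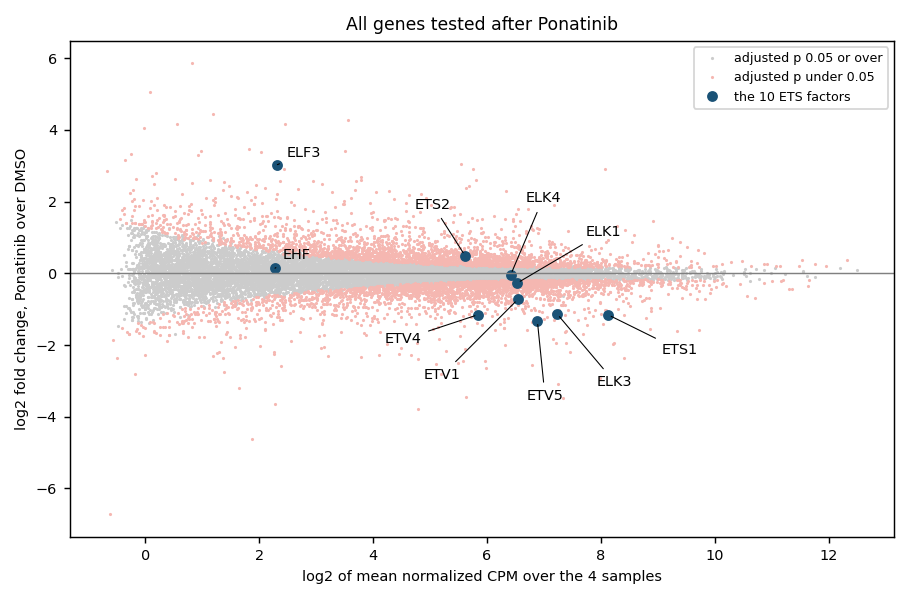
Each point is 1 of the 16031 genes tested, by the log2 of its mean normalized CPM over the DMSO and Ponatinib samples (x axis) and its log2 fold change, Ponatinib over DMSO (y axis); pink points have an adjusted p under 0.05. ELF3 lies at 3.03 among scarce genes, and ETV4, ETV5, ETS1 and ELK3 lie between -1.33 and -1.13 among abundant ones.

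Levels of different genes were compared as normalized CPM per kb of annotated exon length. The order depends on these lengths, which take in all annotated exons. They exceed the canonical transcript, at 7149 against 5139 bases for ETS1 and 3398 against 2876 for ELK1. Orders and sums by other lengths were not tested. With DMSO, ETS1 was the most abundant of the 28 human ETS genes measured, at 53.8 ± 0.98 (SD, n = 2) CPM per kb. ELK3 followed at 44.4 ± 2.1 (SD, n = 2), then ELK1 at 29.7 ± 0.84 (SD, n = 2) and ETV5 at 29.3 ± 0.25 (SD, n = 2), the last pair overlapping. ETV4 came next at 22.6 ± 1.3 (SD, n = 2), so the 5 leading positions were held by members. ETV1 stood at 12.1, ETS2 at 8.17 and ELK4 at 7.09 CPM per kb (means), while EHF at 0.695 and ELF3 at 0.153 ranked 17 and 20.

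By these exon lengths, the order at the top changed after Ponatinib. ELK1 stood at 24.6 ± 2.4 (SD, n = 2) CPM per kb, ETS1 at 24.2 ± 0.18 (SD, n = 2) and ELK3 at 20.3 ± 0.06 (SD, n = 2). The ELK1 and ETS1 ranges overlapped, so the first place could not be assigned with these lengths. ETV5 at 11.6 ranked 7 and ETV4 at 10.2 ranked 9, below ELF4, ELF1 and ERF, which are no members, and ETV5 overlapped ETS2 at 11.5. ELF3 rose to 1.24 CPM per kb, still below ELK4, the next member up, at 6.93.

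Summed over the 28 genes, the level was 272.6 and 275.6 CPM per kb with DMSO and 182.9 and 193.5 with Ponatinib. The 10 members made up 207.7 and 208.3 of this with DMSO and 116.7 and 120.5 with Ponatinib, whereas the other 18 genes summed to 64.9 and 67.3 with DMSO and to 66.2 and 73.0 with Ponatinib. The members' share of the family's mRNA thus stood at 76.2% and 75.6% with DMSO and at 63.8% and 62.3% with Ponatinib. The PEA3 group alone summed to 62.5 and 65.5 CPM per kb with DMSO and to 29.5 and 28.7 with Ponatinib. These sums were not tested.

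**Figure D3:**
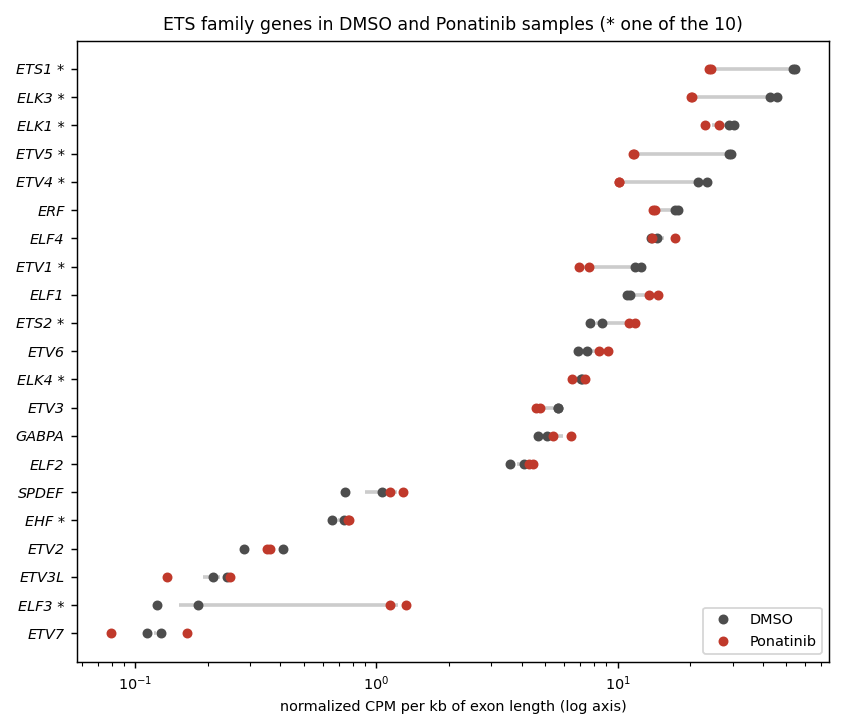
Normalized CPM per kb of exon length (x axis, log scale) of the ETS genes at 0.1 or more in either group (y axis, ordered by the DMSO mean, members starred). Each circle is a sample, grey for DMSO and red for Ponatinib; the 5 genes at the top are ETS1, ELK3, ELK1, ETV5 and ETV4, all of them lower with Ponatinib.

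Each knockdown was compared with the same shCtrl sample, 1 sample against 1. There is no replicate check, so no p-value is given, and the 95% intervals below cover counting error only. A gene was called when it differed over 2-fold with at least 10 counts in either sample. With ABL1 shRNA 0 of the 10 members were called (8.90% of all genes), with ABL2 shRNA 3 (7.67% of all genes) and with both shRNAs 1 (7.74% of all genes). The median log2 ratio of the 10 members was 0.13, 0.33 and 0.25 in that order, and over all genes it was 0.0043, -0.0063 and 0.0002. The shCtrl sample was the lowest of the 4 shRNA samples for 6 members and the highest for 3. Such positions were not counted over all genes. By a measure taken over all genes with enough counts, shCtrl stood apart. There, 437 of 16329 genes were over 2-fold from each of the other samples, against 105 to 239 for those samples. The part of shCtrl in the shared directions below was not tested.

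The PEA3 mRNAs were higher in all 3 knockdown samples than in shCtrl. ETV1 stood at 212.0 normalized CPM in shCtrl and at 309.3, 333.1 and 299.3 in the ABL1, ABL2 and double knockdowns, which is a log2 ratio of 0.54, 0.65 and 0.50. ETV4 measured 71.8, 103.2, 96.6 and 109.1 in the same order, with log2 ratios of 0.52, 0.43 and 0.60. ETV5 measured 94.5, 121.3, 155.3 and 143.2, with log2 ratios of 0.36, 0.72 and 0.60. The counting intervals of all these ratios lay above 0, and none reached 2-fold. Summed per kb, the PEA3 group stood at 58.9 in shCtrl and at 82.6, 89.1 and 87.1 in the knockdown samples, while the sum over all 28 ETS genes was 267.7 in shCtrl and 270.7 to 277.8 in the others.

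Both ETS group members were lower in every knockdown sample than in shCtrl. ETS1 had 389.7 normalized CPM in shCtrl, and 314.2, 194.7 and 242.7 in the ABL1, ABL2 and double knockdowns. With ABL2 shRNA its ratio lay at the threshold (log2 ratio -1.001, 95% interval -1.07 to -0.93), and the call was lost when the samples were scaled by library size alone or by DESeq2's size factors. ETS2 measured 35.7, 29.4, 27.5 and 25.3 in the same order, with log2 ratios of -0.28, -0.38 and -0.50.

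Among the TCFs, ELK3 had 117.1 normalized CPM in shCtrl and 125.8, 187.7 and 134.6 with ABL1, ABL2 and both shRNAs. The level with ABL2 shRNA alone stood apart (log2 ratio 0.68, 95% interval 0.58 to 0.78), while the interval for ABL1 shRNA, -0.0018 to 0.21, included no difference. ELK1 ran from 66.3 in shCtrl to 73.5, 78.1 and 81.5, with log2 ratios of 0.15, 0.24 and 0.30. ELK4 had 105.1, 106.2, 91.6 and 89.2 normalized CPM, within a log2 ratio of 0.01 to -0.24 of shCtrl.

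Both scarce members differed over 2-fold from shCtrl with ABL2 shRNA, in opposite directions. ELF3 had 241 counts in shCtrl, and 173, 49 and 124 in the ABL1, ABL2 and double knockdowns, or 21.2, 13.3, 3.89 and 10.2 normalized CPM. It was 5.45-fold lower with ABL2 shRNA (log2 ratio -2.45, 95% interval -2.92 to -1.997) and 2.08-fold lower with both (log2 ratio -1.06, 95% interval -1.38 to -0.74). Its level in the double knockdown lay between those of the single knockdowns, and a relation to the remaining ABL mRNA was not tested. EHF went the other way, at 12.4 normalized CPM in shCtrl and 18.7, 25.2 and 17.9 in the knockdown samples. It was 2.03-fold higher with ABL2 shRNA (log2 ratio 1.02, 95% interval 0.73 to 1.32).

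**Figure D4:**
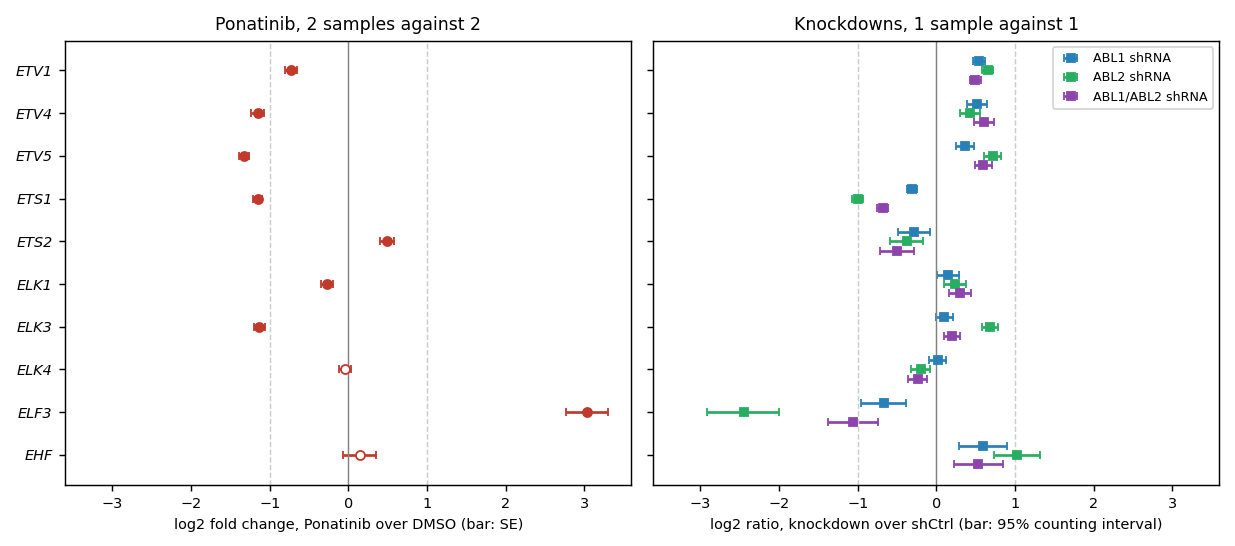
Left, log2 fold change of each ETS factor, Ponatinib over DMSO, with its SE (filled circles passed an adjusted p of 0.05). Right, log2 ratio of each knockdown sample to the shared shCtrl sample with its 95% counting interval; dashed lines mark 2-fold, and ETV1, ETV4 and ETV5 lie below 0 on the left and above 0 on the right.

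Set side by side, ETV1, ETV4, ETV5 and ELK1 were lower with Ponatinib and higher than shCtrl in every knockdown sample. ELK3 was also lower with Ponatinib, and it was higher than shCtrl beyond counting error with ABL2 shRNA and with both shRNAs. ETS1 was lower in both settings. ETS2 and ELF3 were higher with Ponatinib and lower than shCtrl in every knockdown sample. The difference between the drug and the knockdowns was not tested, since the experiments have separate controls and the knockdowns 1 sample each.

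Of the other 18 ETS genes, 8 had enough counts to be tested, 2 fell, 2 rose and 4 did not pass, with a median log2 fold change of 0.23. For this list and those below, 15.7% of all genes tested fell and 15.0% rose by the same rule. ERF, an ETS repressor that ERK drives out of the nucleus, fell by 0.31 (edgeR adjusted p = 0.0066) and ETV3, another repressor, by 0.28 (adjusted p = 0.030) on the log2 scale. Neither passed in DESeq2's Wald test or without either DMSO sample. ELF1 rose by 0.35 (edgeR adjusted p = 0.0036) and ETV6 by 0.29 (adjusted p = 0.014) on the same scale. In DESeq2's Wald test 1 gene of this list passed as higher. In the double knockdown 1 of the 10 with enough counts was over 2-fold from shCtrl (7.74% of all genes). It was SPDEF, a luminal epithelial factor, with 21 counts in shCtrl and 69 with both shRNAs.

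The ERK output genes other than ETV4 and ETV5 moved the same way as those factors. They were listed with earlier results of these data known, so their shared fall is not independent support. All 8 fell after Ponatinib, with a median log2 fold change of -1.32, and 5 were DEGs. In DESeq2's Wald test, and without either DMSO sample or Ponatinib replicate 1, 7 of the 8 were lower. SPRY4, a feedback inhibitor of receptor signaling, fell 11.05-fold (log2 fold change -3.47, SE 0.08, edgeR adjusted p = 5.8e-13). DUSP6, the phosphatase that inactivates ERK, fell 5.92-fold and EPHA2, a receptor tyrosine kinase, 3.85-fold. In the double knockdown, as for the PEA3 group, 7 of the 8 lay above shCtrl. Over all genes with enough counts, 7872 of 15733 did. SPRY4 was over 2-fold above shCtrl in all 3 knockdown samples, at 229.5 normalized CPM in shCtrl and 626.6, 541.1 and 621.8 with ABL1, ABL2 and both shRNAs. ETV5 therefore lay beside the median of this list after Ponatinib (-1.33 against -1.32), and ETV1 nearer to 0 (-0.73).

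Among 16 genes for kinases, partners and degraders of ETS factors, 2 fell, 5 rose and 9 did not pass after Ponatinib, and the median log2 fold change was 0.04. RPS6KA2, a kinase activated by ERK, rose 2.32-fold, ATXN1, a partner of CIC, 1.64-fold and MED23, the Mediator subunit that ELK1 contacts, 1.43-fold. SRF, the partner of the TCFs, fell 1.42-fold (edgeR adjusted p = 6.9e-05) and MAP2K1, which encodes the kinase MEK1, 1.22-fold. CIC, named after its values were seen because it represses the PEA3 genes, measured 126.7 and 123.9 normalized CPM with DMSO and 114.5 and 133.3 with Ponatinib (log2 fold change -0.02, edgeR adjusted p = 0.86). RPS6KA2 was 1.82-, 1.09- and 2.01-fold lower than in shCtrl with ABL1, ABL2 and both shRNAs.

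Of 10 TCF and SRF target genes, 7 could be tested, of which 5 fell and 1 rose after Ponatinib, with a median log2 fold change of -1.07. FOS, a subunit of AP-1, fell 6.75-fold from 4.503 and 4.546 normalized CPM to 0.379 and 1.04, EGR1, a zinc finger factor, fell 4.97-fold and MCL1, a survival protein, 2.38-fold. NR4A1, an orphan nuclear receptor, rose 2.85-fold (edgeR adjusted p = 0.0013). In the double knockdown 3 of the 9 with enough counts were over 2-fold higher than shCtrl and none lower, led by NR4A1 and EGR3. Over all 15733 genes with enough counts, 703 were higher by that rule and 514 lower. NR4A1 was 2.97-, 1.095- and 3.29-fold above shCtrl with ABL1, ABL2 and both shRNAs. EGR3 was 2.30-, 6.72- and 2.87-fold above shCtrl in the same order, on 16 counts in shCtrl and 42, 119 and 49.

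Of 8 genes in a list named for proteases with ETS and AP-1 sites, 6 could be tested and 4 fell, with a median log2 fold change of -0.70. The promoters of these 8 genes were not searched for such sites. PLAUR, the urokinase receptor, fell 4.01-fold, its ligand PLAU 1.96-fold and MMP14, a membrane-bound matrix protease, 1.90-fold (edgeR adjusted p = 1.2e-10, 1.5e-08 and 2.3e-08). MMP2, which cuts basement membrane collagen, was lower than shCtrl in every knockdown sample. The difference was 4.40-, 3.83- and 4.38-fold with ABL1, ABL2 and both shRNAs. MMP2 stood at 96.97 normalized CPM in shCtrl and at 22.03, 25.33 and 22.13 in the same order. In the DMSO samples, which were scaled separately, it stood at 3.002 and 4.647. The shCtrl level was the highest of these, and its part in the difference was not tested. Of 15 epithelial genes found with ELF3 and EHF, 9 could be tested, of which 2 fell, 2 rose and 5 did not pass, with a median of 0.10. The splicing factor ESRP1 rose 4.25-fold, from 0.971 and 0.606 normalized CPM to 3.70 and 3.12, and the tight junction gene CLDN7 1.96-fold. ESRP2, a relative of ESRP1, fell 2.82-fold (edgeR adjusted p = 0.022) and KRT18 1.46-fold. The ESRP2 fall rested on 25 and 18 counts with DMSO and 11 and 2 with Ponatinib. With at least 10 counts required in every sample, neither ESRP1 nor ESRP2 could be tested. In DESeq2's Wald test 1 gene of this list was lower. CDH1 and ESRP1 were over 2-fold above shCtrl with ABL1 shRNA and with both shRNAs, and neither was called with ABL2 shRNA. CDH1 had 4 counts in shCtrl and 23, 2 and 20 with ABL1, ABL2 and both shRNAs. ESRP1 had 7, 33, 14 and 24 in the same order.

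**Figure D5:**
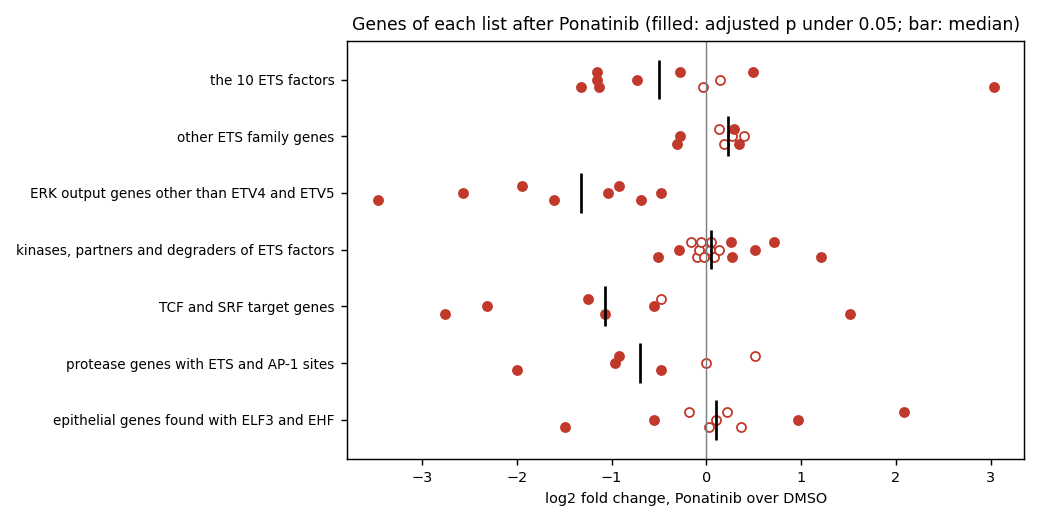
Log2 fold change, Ponatinib over DMSO (x axis), of each gene tested in the 10 ETS factors and the 6 gene lists (y axis). Filled circles have an adjusted p under 0.05 and black bars are list medians, which run from -1.32 for the ERK output genes to 0.23 for the other ETS genes.

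Because the PEA3 mRNAs fell together, the promoters of the members were searched for motifs. RefSeq windows on GRCh38.p14 were at hand for 7 members (15 windows, of which the 250 bases before the start were searched on both strands). ETV4, ETV5 and ETS1 were not searched. The motifs were the CIC octamer (spelled TGAATGAA or TGAATGGA or TCAATGAA or TCAATGGA), the ETS motif CGGAAG, the AP-1 motif TGANTCA, the CRE TGACGTCA and the CArG box bound by SRF. Over all 34943 windows these were held by 3.17%, 16.4%, 6.59%, 1.63% and 1.16%, and no motif overlapped another in the matches below. The CIC octamer was found in 1 window, upstream of the annotated start of ETV1 at chr7:13991426-13991675 on the minus strand, beginning 125 bases before the start. The window is printed for that match, in capitals.
ETV1: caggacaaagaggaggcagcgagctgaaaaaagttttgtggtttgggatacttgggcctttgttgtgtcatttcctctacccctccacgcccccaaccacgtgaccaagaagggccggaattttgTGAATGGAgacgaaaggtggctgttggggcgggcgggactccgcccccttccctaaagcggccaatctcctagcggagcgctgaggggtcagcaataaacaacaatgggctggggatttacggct

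The ETS motif was found in the window of ELK4, the TCF that did not pass the test, 21 bases before its start. The AP-1 motif, the CRE and the CArG box had 0 matches in the 15 windows. A match describes the letters only.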

How the data were processed

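The members, gene lists and motifs were chosen with earlier results of these data known. The authors prepared libraries with the NEBNext Ultra RNA kit and an Illumina HiSeq, mapped the reads to hg38 with TopHat and counted them with HTSeq 0.6.0. The deposited values are raw read counts per gene with Ensembl IDs, 1 file per sample. The annotation release and counting mode are not given in the sources used here. Counter rows that name no gene were left out (no feature 9.48% to 9.90% and ambiguous 6.12% to 6.32% of reads in the shRNA samples). Of the IDs, 93.4% matched a symbol.

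Ponatinib was compared with DMSO in 4 samples by edgeR 4.0.16 (R 4.3.3; TMM, filterByExpr, quasi-likelihood test, Benjamini-Hochberg adjustment over all genes tested). DESeq2 1.42.0 was an alternative. Knockdown ratios carry exact conditional binomial intervals and single levels Wilson intervals, both at 95% and for counting error only. Exon lengths are unions of GENCODE v44 exons. Sample repeats differed by more than sampling noise (chi-square per degree of freedom 1.45 for DMSO and 3.23 for Ponatinib). Scripts were tested on simulated data. From each list, at most the 3 largest rises and 3 largest falls after Ponatinib with an adjusted p under 0.05, and at most the 2 largest of each over 2-fold in the double knockdown, were named. Alternatives were other scalings, filters and tests, the replicate block, all 8 samples in 1 fit, and dropping each sample of the drug experiment in turn.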

Additional observations from a re-analysis of the deposited data

How the results depend on the processing

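The direction and call of every member after Ponatinib held under the alternatives run, except for ELK1, whose values are given above, and ELK4, whose log2 fold change turned positive with library size alone (0.0058) and without Ponatinib replicate 1; leaving out each sample, it ran from -0.127 to 0.0628. Without 1 sample in turn, 5 to 6 members were lower and 2 higher, and DEGs stayed at 5. Members over 2-fold in the ABL1, ABL2 and double knockdowns numbered 0, 3 and 1, against 2, 6 and 4 at 1.5-fold and 6, 7 and 7 by an adjusted p under 0.05 in an edgeR fit of all 8 samples, in which the drug experiment's pairs alone give the spread. Among the lists, DESeq2's Wald test left 0 other ETS genes lower and 1 higher, 3 kinases and partners higher and 1 epithelial gene lower; at least 10 counts in every sample left 1 epithelial gene lower and 1 higher. Leaving out each sample gave 0 to 2 other ETS genes lower and 1 to 4 higher, 1 to 2 kinases and partners lower and 3 to 6 higher, 0 to 1 proteases higher, and 1 to 2 epithelial genes lower. The DMSO and Ponatinib samples share only a repeat number (correlation of same-numbered deviations -0.02); with the replicate block 6 members were lower, 2 higher and 5 DEGs. The median log2 fold change of all genes was -0.0047, against -0.0019 with DESeq2's size factors and 0.0400 with library size alone. Depth limits ELF3 and EHF most, with at most 101 and 55 counts in the drug experiment.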

Other observations

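Some members stood at other levels in the controls of the experiments, which were scaled separately and differ in treatment, so experiment and treatment cannot be told apart and no test was made. ELF3 had 0.883 and 1.31 normalized CPM with DMSO and 21.2 in shCtrl, and its levels with Ponatinib, 9.58 and 8.18, lay within the range of the shRNA samples (3.89 to 21.2). EHF had 4.86 and 4.34 with DMSO and 12.4 in shCtrl. ETV1 had 113.0 and 119.6 with DMSO and 212.0 in shCtrl, whereas ETV5 had 167.9 and 170.0 with DMSO and 94.5 in shCtrl and ELK3 213.0 and 199.2 with DMSO and 117.1 in shCtrl. ETS1 was much alike, at 389.8 and 379.8 with DMSO and 389.7 in shCtrl.

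ABL2, a target of the drug at the protein level and of the shRNA at the mRNA level, also fell at the mRNA level with Ponatinib, from 334.4 and 305.3 normalized CPM to 147.2 and 168.7 (2.03-fold lower, edgeR adjusted p = 8.6e-08). ABL1 rose 1.14-fold (edgeR adjusted p = 0.029). SPDEF, the ETS gene of luminal epithelium, was over 2-fold above shCtrl in all 3 knockdown samples, with 21 counts in shCtrl and 83, 56 and 69 with ABL1, ABL2 and both shRNAs.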
